A study of Mus musculus with 5 samples.

Results

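The 8 genes described here, Acta2, Tagln, Myl9, Cnn1, Tpm2, Myh11, Des and Actg2, encode the contractile machinery of smooth muscle cells. They were found by symbol in the gene list of the files, each once, among 32285 genes. They were followed in 23797 single cells from 5 mouse kidneys after ischemia-reperfusion injury (IRI), in which the blood flow of a kidney is stopped for a time and then restored. Mice 1 and 2 were examined at 48 h and mice 3, 4 and 5 at day 10 after IRI, each as 1 library, so n is 2 at 48 h and 3 at day 10. Every animal was injured, the labels give no strain, sex, age or genotype, and no uninjured kidney is among the samples, so all differences are between an early and a late time after injury. The authors had given each kept cell a cell type label, 18 in all. The libraries held 5434 to 8669 barcodes, of which the authors kept 3720 to 5912, with 45887945 to 78351722 UMIs per library. The median depth of a kept cell was 5823 and 6260 UMIs at 48 h and 10328.5, 11750.0 and 10448 at day 10, so depth and time cannot be told apart in measures per cell.

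Smooth muscle shortens when heads of a myosin built from Myh11 pull on filaments of the actin encoded by Acta2, and a calcium-activated kinase starts this by phosphorylating the myosin light chain Myl9. Tpm2 (beta-tropomyosin), Cnn1 (calponin) and Tagln (transgelin, also called SM22-alpha) lie along the actin filament, Des (desmin) forms an intermediate filament that ties the apparatus together, and Actg2 is a second smooth muscle actin, best known from the gut wall. In the kidney these genes are known from the muscle of arteries and arterioles, from pericytes and mesangial cells, and, after injury, from myofibroblasts, the matrix-making cells that take up part of this programme. Serum response factor (SRF) with its partner myocardin is known to switch the programme on by binding CArG boxes.

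The promoters of Acta2 and Myl9 are shown because, of the 5 promoters searched, they held a CArG box (Myl9) or a near form of it (both). RefSeq promoters on GRCm38.p6, each from 250 bases before to 50 bases after the start of the gene, were at hand for 5 of the 8 genes (Acta2, Myl9, Cnn1, Tpm2 and Des). A CArG box is CC, then 6 bases that are each A or T, then GG, and it reads the same way on both strands as a motif. A form with 1 inner G or C was counted as CArG-like. Capitals mark these boxes in the sequences below, which run 5′ to 3′ along the strand of the gene, from chr19:34255324-34255623 (minus strand) for Acta2 and from chr2:156775214-156775513 (plus strand) for Myl9.
Acta2: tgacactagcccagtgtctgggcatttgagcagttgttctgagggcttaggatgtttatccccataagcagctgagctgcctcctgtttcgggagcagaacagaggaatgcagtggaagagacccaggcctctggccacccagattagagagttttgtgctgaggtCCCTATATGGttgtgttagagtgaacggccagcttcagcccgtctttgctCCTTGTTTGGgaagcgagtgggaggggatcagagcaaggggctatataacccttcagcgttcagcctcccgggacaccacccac
Myl9: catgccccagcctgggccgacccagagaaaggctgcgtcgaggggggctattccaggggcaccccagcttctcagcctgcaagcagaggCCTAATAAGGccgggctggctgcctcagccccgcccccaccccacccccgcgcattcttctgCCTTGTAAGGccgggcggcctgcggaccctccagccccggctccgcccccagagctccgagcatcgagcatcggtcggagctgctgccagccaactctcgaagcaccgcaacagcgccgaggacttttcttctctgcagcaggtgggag
Myl9 held 1 CArG box, beginning 161 bases before the start, and a CArG-like box beginning 99 bases before it. Acta2 held 2 CArG-like boxes, beginning 84 and 34 bases before the start. Of the 32851 RefSeq promoters at hand, 1.63% held a CArG box and 8.50% a CArG-like box. The windows of Cnn1, Tpm2 and Des held neither form.

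By GENCODE M21 on mm10 the genes lie on 7 chromosomes, with Acta2 at chr19:34241090-34255590, Tagln at chr9:45929619-45936058, Myl9 at chr2:156775420-156781658, Cnn1 at chr9:22099216-22109630, Tpm2 at chr4:43514711-43523765, Myh11 at chr16:14194535-14291372, Des at chr1:75360329-75368579 and Actg2 at chr6:83512905-83536265. Tagln overlaps Pcsk7 and an antisense gene on the opposite strand, and Des overlaps an antisense gene, so whether reads of those genes were kept apart depends on strand-aware counting, which is not given in the sources used here. The actins are closely related in sequence, and how reads common to them were assigned is likewise not given.

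All 8 genes were measured mainly in the cells labelled Interstitial Cells, which numbered 1005 (115, 71, 349, 286 and 184 in mice 1 to 5). Of all UMIs of a gene in the kept cells, between 85.0% (Tagln) and 94.9% (Myh11) lay in that label. UMIs are single counted mRNA molecules, and levels are given as CPM, counts per 1000000 UMIs summed over a group of cells in 1 mouse. Summed over the 8 genes the interstitial level was 12192 and 14281 CPM in the 48 h mice and 9405, 7765 and 9103 CPM in the day 10 mice, 1.05% of the UMIs of the label on average. Apart from podocytes, which numbered 15 in mouse 2 and 23 in mouse 4, the next level, as a mean over the 5 mice, was that of the descending thin limb, at 20.7 and 41.3 CPM at 48 h and 407, 99.4 and 128 CPM at day 10. It did not come next in every mouse. The label TEC was above it in both 48 h mice (63.5 and 88.1 CPM) and in mouse 4 (125 CPM). The proximal tubule label PTEC: Lrp2- S2/3 was above it in both 48 h mice (29.4 and 102 CPM). Immune cells were above it in mice 1 and 4 (40.4 and 120 CPM). So were cycling proximal tubule and endothelial cells in mouse 1 (41.9 and 28.0 CPM) and principal cells in mouse 4 (165 CPM). The labels had been made from these same counts, so this order is a description and carries no test.

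**Figure D1:**
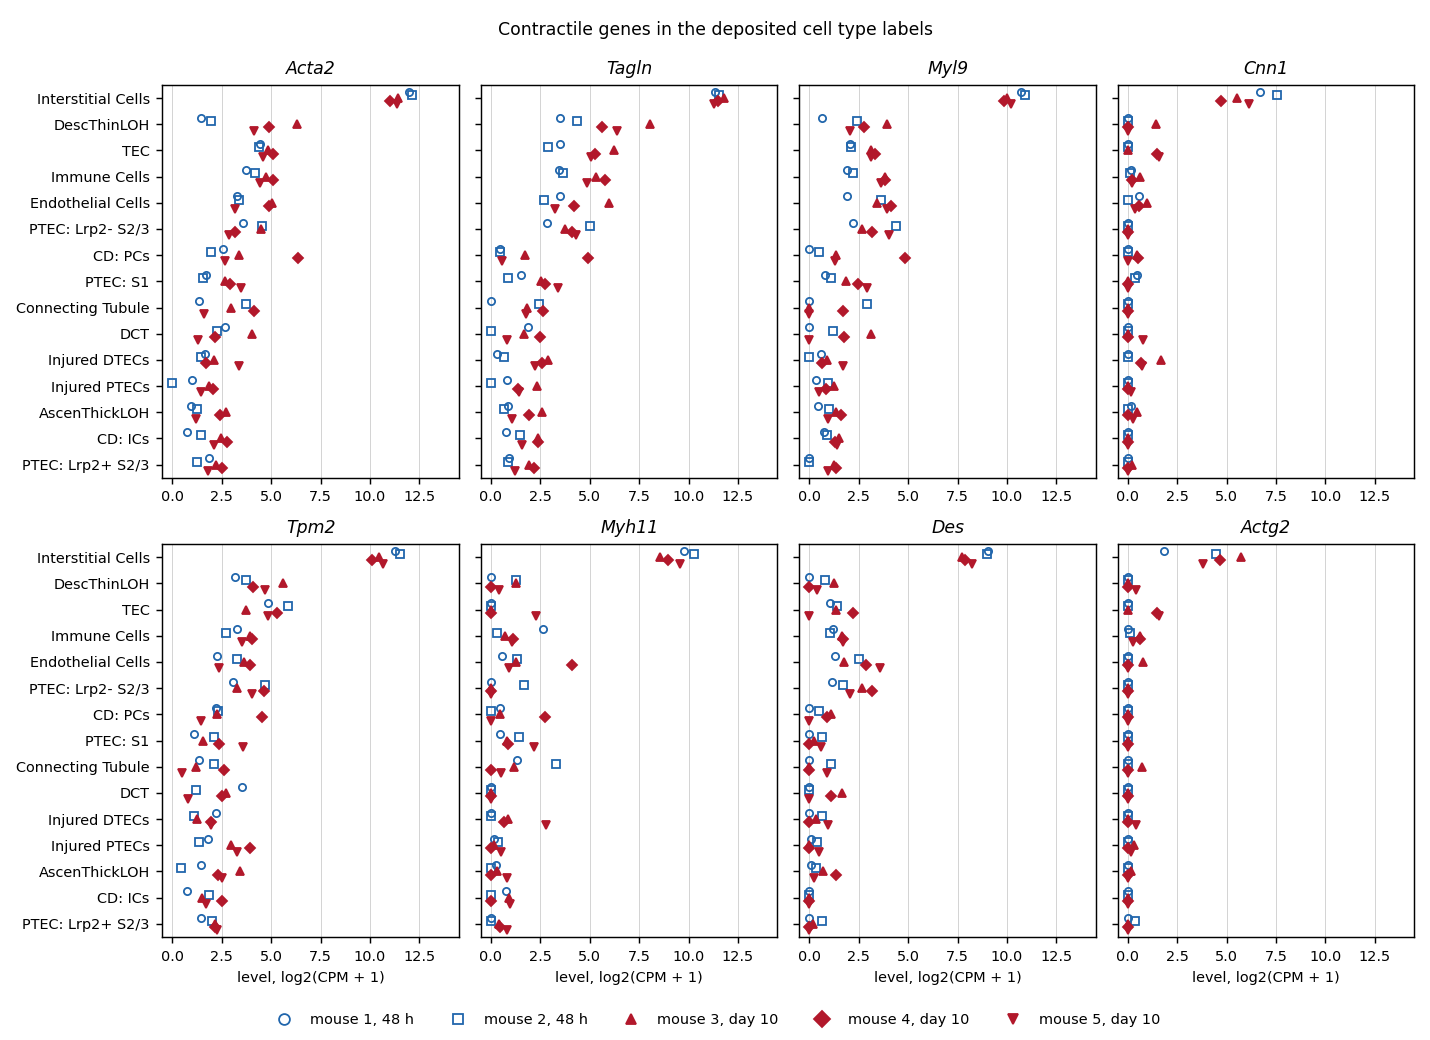
Level of each contractile gene, as log2(CPM + 1), in the 15 deposited labels with at least 20 cells in every mouse, with 1 point per mouse (open, 48 h; filled, day 10). In each panel the interstitial points lie to the right of nearly all others; the order of the labels follows the summed level of the 8 genes.

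The 8 genes followed each other across the 15 labels with at least 20 cells in every mouse. Over these 75 label-by-mouse values, on the log2(CPM + 1) scale, the Pearson correlation of a gene with the mean of the other 7 ran from 0.868 (Actg2) to 0.963 (Myl9). The 8 genes outside the set with the profile most like the mean of the 8, among 8960 genes with at least 10 CPM in interstitial cells, were Mrvi1 (r = 0.942), Lmod1 (0.940), Ptgis (0.939), Ddr2 (0.939), Cd248 (0.938), Pdgfrb (0.937), Fxyd1 (0.936) and Col6a2 (0.935). Lmod1 is a smooth muscle leiomodin that nucleates actin filaments, Pdgfrb is the platelet-derived growth factor receptor of mural cells and fibroblasts, and Ddr2 is a collagen receptor. The points share libraries and depth, most of the spread is the gap between interstitial cells and the rest, and the correlations are descriptions.

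The interstitial label held more than muscle. Its marker lists for vascular smooth muscle, pericytes, fibroblasts and mesangial cells were all detected in full (8 of 8, 7 of 7, 7 of 7 and 5 of 5 genes). The muscle list shares Myh11, Acta2, Tagln, Cnn1, Des and Actg2 with the genes described here. Detection means any UMI, which tubule markers such as Lrp2 and Umod also had, so by itself it shows no cell type. The summed fibroblast markers ran from 6322 to 13145 CPM over the 5 mice. The cells were therefore split by UMIs of Myh11, with 2 or more called Myh11-high, and by the summed UMIs of the collagens Col1a1, Col1a2 and Col3a1, with 5 or more called collagen-high. These are ranges of a count and not cell types.

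Of the 1005 interstitial cells 264 were Myh11-high, and their share of the label was 24.3% and 25.4% at 48 h and 28.9%, 20.3% and 32.1% at day 10 (exact permutation test, two-sided p = 0.8; the smallest p that 2 against 3 mice allow is 0.2). The share thus overlapped between the times. Median depth was higher at day 10, at 5246 and 6474 UMIs per interstitial cell at 48 h and 10164, 7206.5 and 8705 at day 10. With each cell thinned to 2000 UMIs and 1 or more Myh11 UMI counted, the share was 25.5% and 28.1% at 48 h and 25.2%, 22.2% and 27.7% at day 10, over the 94, 57, 305, 230 and 166 cells deep enough in mice 1 to 5.

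Outside the Myh11-high cells the makeup of the label differed widely between the times. Collagen-high cells with fewer than 2 Myh11 UMIs made up 14.8% and 26.8% of interstitial cells at 48 h and 53.6%, 62.9% and 45.1% at day 10 (exact permutation p = 0.2, the smallest possible). Cells low in both made up 60.9% and 47.9% at 48 h and 17.5%, 16.8% and 22.8% at day 10 (exact permutation p = 0.2). The groups did not overlap in either share. The limit of 5 collagen UMIs depends on depth. Over cells thinned to 2000 UMIs, whatever their Myh11, the share with 1 or more collagen UMI was 30.9% and 47.4% at 48 h. At day 10 it was 78.4%, 80.4% and 63.9%. As shares of all kept cells, the cells low in both stood at 1.43% and 0.914% at 48 h and 1.03%, 1.23% and 0.783% at day 10, while the collagen-high cells low in Myh11 stood at 0.347% and 0.511% at 48 h and 3.16%, 4.60% and 1.55% at day 10.

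**Figure D2:**
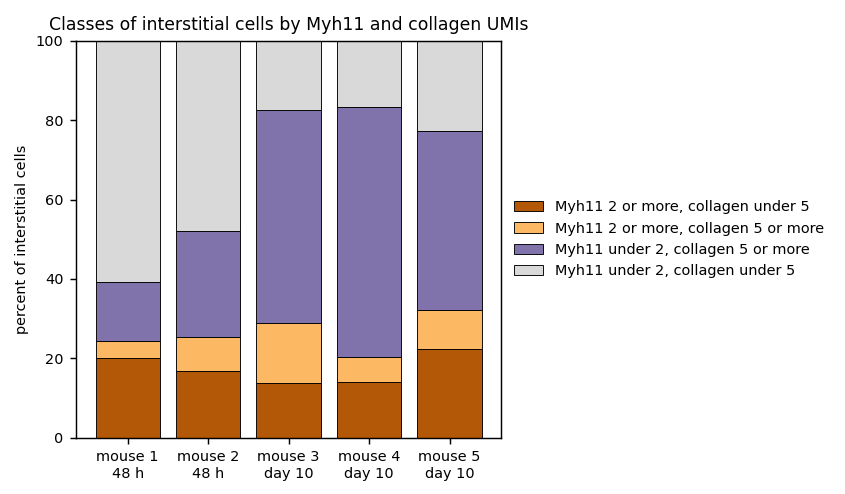
Share of interstitial cells (percent, y axis) in 4 classes by UMIs of Myh11 and of 3 collagens, 1 stacked bar per mouse. The class low in Myh11 and high in collagen makes up 14.8% and 26.8% at 48 h and 45.1% to 62.9% at day 10, and the Myh11-high classes together make up 20.3% to 32.1% in the 5 mice.

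With the 5 mice pooled, the Myh11 limit cut through a continuum. The 56 cells with 1 Myh11 UMI (3, 2, 29, 13 and 9 in mice 1 to 5) held 2023 CPM of Acta2 and 13984 CPM of the 3 collagens. The 27 cells with 2 Myh11 UMIs (4, 0, 9, 6 and 8) held 2237 and 14308 CPM. Cells just inside and just outside the limit thus had close levels of these genes, in a pool made mostly of day 10 cells. The 135 cells with 10 or more Myh11 UMIs held 10880 CPM of Acta2 and 3889 CPM of collagen. Among the Myh11-high cells 164 were collagen-low (23, 12, 48, 40 and 41 in mice 1 to 5) and 100 were collagen-high (5, 6, 53, 18 and 18), and the median cell of the latter held 17657 UMIs. In the collagen-high Myh11-high cells Acta2 was at 7854 and 15937 CPM at 48 h and 4325, 3504 and 2953 CPM at day 10, without overlap, whereas Tagln was at 5936 and 10127 and 4874, 6599 and 3217 CPM and Des at 533 and 157 and 191, 269.8 and 296 CPM, with overlap; no test was run on them. Whether they are single cells or barcodes that hold a pair of cells was not tested, and no step that removed such pairs is visible in the deposited table.

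The genes differed in how much of them lay in the Myh11-high cells. Of the interstitial UMIs pooled over the 5 mice, 93.0% of Cnn1, 75.9% of Acta2, 71.8% of Tpm2, 67.8% of Myl9, 54.3% of Tagln, 50.4% of Actg2 and 29.0% of Des lay in them; for Myh11 itself, by which the cells were chosen, it was 99.1%. This order is that of the pool: for Tagln the share was 85.1% and 87.0% at 48 h and 49.2%, 46.8% and 60.4% at day 10, so at 48 h it lay above that of Tpm2 (84.2% and 83.5%) and Myl9 (72.5% and 70.6%). Cnn1 had the highest share of these 7 in every mouse (82.5% to 100%), and Des the lowest (22.3% to 34.4%). Cnn1 was almost confined to these cells: cells with fewer than 2 Myh11 UMIs and high collagen held 0 and 0 CPM at 48 h and 11.9, 2.57 and 1.64 CPM at day 10. Des was at 679 and 932 CPM at 48 h and 669, 591 and 948 CPM at day 10 in the cells low in both Myh11 and collagen, against 249 and 230.4 and 168, 188 and 225 CPM in the collagen-high cells low in Myh11.

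The cells low in both Myh11 and collagen carried the Des and Myl9 end of the set with little Acta2 or Tagln at 48 h. Acta2 there was 68.7 and 80.8 CPM at 48 h and 601, 433 and 55.4 CPM at day 10, Tagln 104 and 10.8 and 786, 609.6 and 222 CPM, and Myl9 833 and 1277 and 1302, 1253 and 876 CPM. Actg2 had no UMI there in any mouse, where 3 counts is the limit that a count of 0 allows. All 5 mesangial markers (Itga8, Gata3, Pdgfrb, Sfrp2 and Serpine2) were detected in these cells, with a sum of 6082, 7446, 6455, 5896 and 7323 CPM in mice 1 to 5. In the Myh11-high collagen-low cells that sum was 824, 1118, 999, 1135 and 952 CPM.

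The share of cells with at least 1 UMI told the same order at an equal depth of 2000 UMIs per cell. Cells with fewer UMIs were left out, so a share can lie above that without thinning. At 48 h and day 10 these were 7 of 35 and 10 of 129 of the Myh11-high collagen-low cells. They were 6 of 36 and 72 of 450 of the collagen-high cells low in Myh11, and 22 of 104 and 35 of 151 of those low in both. Acta2 was seen in 100% of the Myh11-high collagen-low cells at 48 h and 95.8% at day 10, in 56.7% and 49.7% of the collagen-high cells low in Myh11, and in 8.54% and 12.9% of those low in both. In the S1 proximal tubule, which is not known to make this actin, the share was 0.521% and 1.57%. Des was seen in 79.3% of the cells low in both at either time, and in 57.1% and 50.4% of the Myh11-high collagen-low cells. Without thinning the shares for Acta2 were 91.4% and 94.6%, 77.8% and 69.1%, 16.3% and 24.5%, and 2.72% and 5.28%, in the same order of classes.

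**Figure D3:**
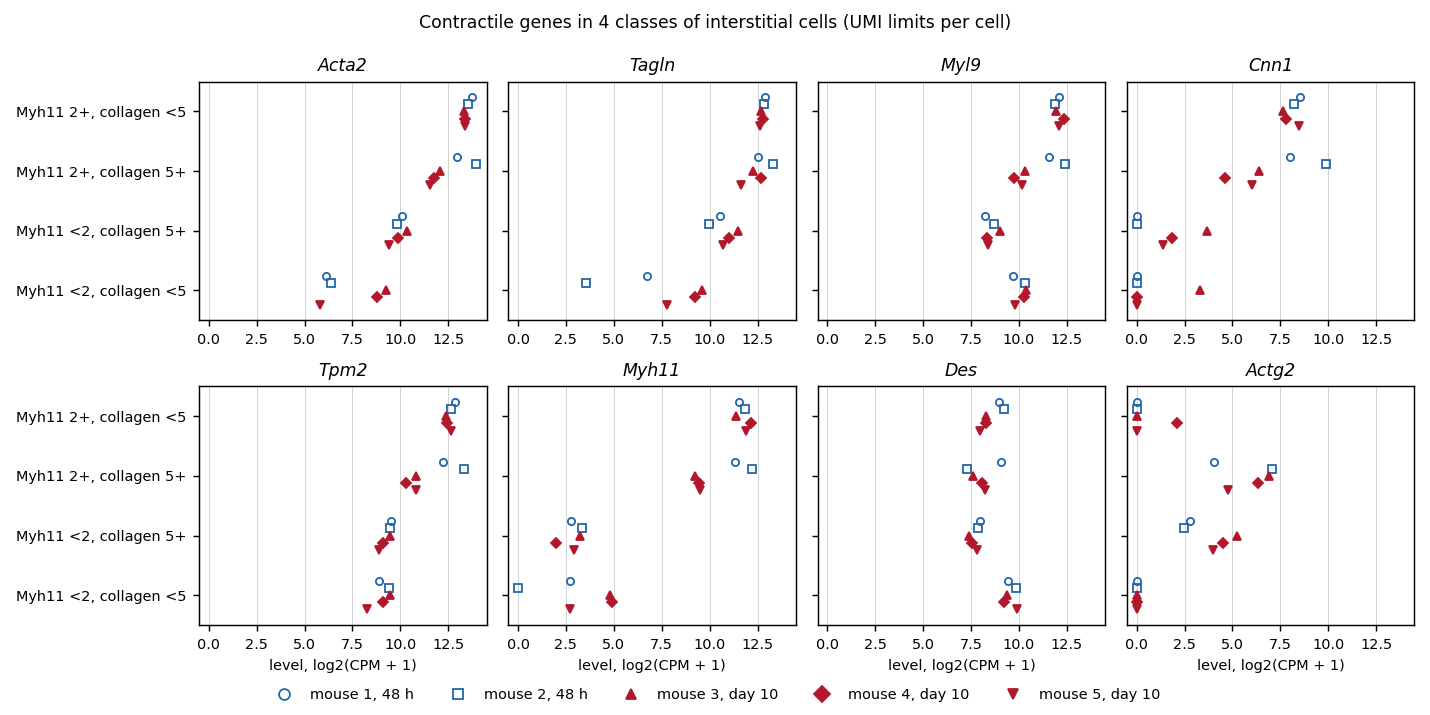
Level of each contractile gene, as log2(CPM + 1), in 4 classes of interstitial cells set by UMIs of Myh11 and of 3 collagens, 1 point per mouse (open, 48 h; filled, day 10). Acta2, Tagln and Tpm2 are high in the Myh11-high collagen-low cells of every mouse, whereas Des is higher in the cells low in both than in those, in each mouse.

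Over the whole interstitial label, 5 of the 8 genes were lower at day 10 than at 48 h. Differences between the times were tested with edgeR's quasi-likelihood test on UMIs summed per mouse, adjusted by Benjamini-Hochberg over the 11392 genes that passed the filter on low counts, and a gene was called at an adjusted p under 0.05. At that threshold 7.44% of all tested genes were called in either direction and 3.53% as lower at day 10. Fold changes are log2 values of day 10 against 48 h. The median over the 8 genes was -0.87, and over all tested genes 0.01.

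Acta2, the actin of the thin filament, stood at 4006 and 4501 CPM in the 48 h mice and at 2768, 2061 and 2629 CPM in the day 10 mice. It fell by 0.76 on the log2 scale (SE 0.14, edgeR adjusted p = 0.0173), and every day 10 mouse was below both 48 h mice. Myl9, the light chain whose phosphorylation starts contraction, was at 1671 and 1938 CPM and then at 1035, 907 and 1158 CPM, and fell by 0.79 (SE 0.14, edgeR adjusted p = 0.0163). Tpm2, the tropomyosin that covers the myosin sites of actin, was at 2433 and 2935 CPM and then at 1378, 1082 and 1636 CPM, and fell by 0.96 (SE 0.18, edgeR adjusted p = 0.0162). None of these groups overlapped, and over the whole set 6 of the 8 genes were lower in every day 10 mouse, which held for 22% of all tested genes.

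Cnn1, the calponin that restrains the myosin motor, was at 102 and 183 CPM at 48 h and 45, 25.4 and 69.7 CPM at day 10, and fell by 1.61 (SE 0.39, edgeR adjusted p = 0.0449). Des, the intermediate filament protein, was at 531 and 501 CPM and then at 212, 235 and 303 CPM, and fell by 1.03 (SE 0.17, edgeR adjusted p = 0.0103). The times did not overlap for either gene. Myh11, the motor itself, had the same ordering, with 882 and 1254 CPM and then 381, 502 and 752 CPM, but did not pass (log2 fold change -0.96, SE 0.28, edgeR adjusted p = 0.0759).

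Tagln and Actg2 did not follow the other 6. Tagln, which binds and bundles actin, was at 2564 and 2947 CPM at 48 h and 3536, 2928 and 2543 CPM at day 10, with groups that overlapped (log2 fold change 0.14, SE 0.16, edgeR adjusted p = 0.652). Actg2 was scarce, with 341 interstitial UMIs in all, at 2.59 and 21 CPM and then 51.2, 24.8 and 13 CPM (log2 fold change 1.54, SE 0.83, edgeR adjusted p = 0.31).

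These falls depended on both 48 h mice. Without mouse 1 the adjusted p of the 5 genes was between 0.0512 and 0.0760, and without mouse 2 between 0.0511 and 0.251, so none passed, with the direction kept. Cnn1 also missed without mouse 3 (0.0761) or mouse 4 (0.0712). Myh11 passed without mouse 5 (0.0265) and with DESeq2 (0.0243). With every cell thinned to 2000 UMIs, which also leaves out the shallower cells, the fold changes of Acta2, Myl9, Cnn1 and Tpm2 were -0.34, -0.40, -0.84 and -0.50 and none of the 4 passed (adjusted p 0.317, 0.238, 0.265 and 0.161), while Des still passed; Myh11 was then at -0.04. Beside the falls, the collagen-high cells low in Myh11 made up more of the label at day 10, where their median cell held 14908, 9322 and 14708 UMIs, against 3633, 3501 and 3970.5 UMIs in the cells low in both.

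Related genes of the label were read from lists chosen for this programme. Of 12 regulators, Klf4, a repressor of the smooth muscle state, rose (from 7.18 ± 4.67 CPM (SD, n = 2) to 30.8 ± 3.99 CPM (SD, n = 3), log2 fold change 2.19, SE 0.41, edgeR adjusted p = 0.0173) and none fell. With 773391 and 572351 interstitial UMIs in the 48 h mice, its level there rested on few Klf4 UMIs. Klf4 was too scarce to test in the Myh11-high collagen-low cells (0, 1, 2, 3 and 8 UMIs in mice 1 to 5). The same held in the cells low in both Myh11 and collagen (2, 0, 1, 3 and 2 UMIs). Srf and Myocd stood at a mean of 13.3 CPM each at 48 h and at 8.95 and 15.3 CPM at day 10, with edgeR adjusted p of 0.65 and 0.754. Of 19 genes of contraction signalling 5 fell and none rose. They included Agtr1a, the angiotensin II receptor (log2 fold change -1.75, SE 0.21), Ppp1r14a, which inhibits the myosin phosphatase (-1.38, SE 0.32), and Rgs4, which damps G protein signals (-1.23, SE 0.27), with edgeR adjusted p of 0.00271, 0.0369 and 0.0307.

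Of 24 other actin filament proteins 2 rose, Palld (log2 fold change 1.25, SE 0.26) and Cnn3 (0.80, SE 0.16), and 2 fell, Lmod1 (-1.10, SE 0.24) and Myl6 (-0.69, SE 0.14). Palld is an actin-bundling palladin, Cnn3 the calponin of non-muscle cells and Myl6 the essential light chain of myosin. Among non-muscle relatives of the set, Tagln2 was at 359.5 and then 393 CPM on average (edgeR adjusted p = 0.594) and Cnn2 at 218 and then 321 CPM (edgeR adjusted p = 0.134), and neither passed. Of 14 genes of the myofibroblast matrix 11 rose and none fell, led by fibronectin, Fn1 (from 183 ± 105 CPM (SD, n = 2) to 1816 ± 83.1 CPM (SD, n = 3), log2 fold change 3.34, SE 0.34, edgeR adjusted p = 0.00163), tenascin, Tnc (3.18, SE 0.17, edgeR adjusted p = 0.000339), and fibulin 2, Fbln2 (2.40, SE 0.29, edgeR adjusted p = 0.00278). The medians of the 4 lists, in the order given, were 0.08, -0.48, -0.16 and 1.62.

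Within the Myh11-high cells, 3 of the 7 genes other than Myh11 were called and all 3 fell, where 1.53% of 8033 tested genes were called in either direction and 0.299% as lower. Acta2 was at 12191 and 13921 CPM at 48 h and at 5894, 6775 and 6834 CPM at day 10, a fall by 1.11 (SE 0.15, edgeR adjusted p = 0.0122). Tpm2 was at 6693 and 8266 CPM and then at 2778, 3235 and 4101 CPM, and fell by 1.26 (SE 0.20, edgeR adjusted p = 0.0221). Cnn1, at 334 and 619 and then 113.4, 118 and 211 CPM, fell by 1.80 (SE 0.35, edgeR adjusted p = 0.0397). In all 3 the day 10 mice were below the 48 h mice, and the same held without a call for Myl9 (log2 fold change -0.85, adjusted p = 0.094), Tagln (-0.59, adjusted p = 0.197) and Des (-0.88, adjusted p = 0.0995); such an order held for 13.5% of all tested genes. Without mouse 1 or without mouse 2 none of the 3 passed (adjusted p from 0.144 to 0.280), Cnn1 also missed without mouse 4 (0.0738), and with a limit of 3 Myh11 UMIs Cnn1 (0.0665) and Tpm2 (0.0552) missed.

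Fibroblast markers moved with these falls. In the Myh11-high cells the summed fibroblast markers, all 7 of 7 detected, were at 663 and 854 CPM at 48 h and at 13188, 7190 and 8312 CPM at day 10, and 12 of the 13 tested genes of the myofibroblast matrix list rose. When the collagen-high cells were left out, a split chosen after the data were seen, Pdgfra, Lum and Dpt were at 0 in every mouse and Dcn at 0 in all but mouse 4, at 23.4 CPM. The other 3 fibroblast markers are the collagens that made the split, so nothing is read from their level.

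In these 164 Myh11-high collagen-low cells none of the 6 tested contractile genes other than Myh11, which chose the cells, was called, where 0.16% of 5010 genes were (8 genes; 397 genes had an unadjusted p under 0.05, and DESeq2 called 12). Acta2 was at 13855 and 11994 CPM in the 48 h mice and at 10272, 10469 and 10760.2 CPM in the day 10 mice (log2 fold change -0.31, SE 0.12, edgeR adjusted p = 0.496). Tagln was at 7579 and 7236 and then 6564, 7157 and 6231 CPM (-0.17, SE 0.13, edgeR adjusted p = 0.809). Every day 10 mouse was below both 48 h mice in each, as in 12.1% of all tested genes.

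Myl9 in the same cells was at 4313 and 3837 CPM and then at 3939, 5328 and 4318 CPM, Tpm2 at 7416 and 6360.1 and 5421, 5472 and 6406 CPM, and Cnn1 at 362 and 299.6 and 199, 224 and 359 CPM, each with overlapping times. Des had the largest difference of the set there, at 503 and 588 CPM at 48 h and 311, 311 and 246 CPM at day 10 (log2 fold change -0.91, SE 0.22, unadjusted p = 0.000815, edgeR adjusted p = 0.151). Every day 10 mouse was below both 48 h mice for Des, yet the gene did not pass. Actg2 had 1 UMI in these cells, in mouse 4, and was not tested.

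Among the interstitial cells with fewer than 2 Myh11 UMIs the picture was the other way round for Tagln. Here 8.39% of 10464 tested genes were called, 4% as higher at day 10 and 4.39% as lower. Of the 6 tested contractile genes 2 were called as higher and 1 as lower. Tagln was at 552 and 544 CPM at 48 h and at 2669, 1946 and 1493 CPM at day 10, and rose (log2 fold change 1.96, SE 0.23, edgeR adjusted p = 0.00144). Each day 10 mouse stood above both 48 h mice, as in 20.3% of all tested genes. Actg2, at 1.86 and 2.48 CPM and then 33.7, 20 and 12.8 CPM, was called as higher too (3.45, SE 0.83, edgeR adjusted p = 0.0351). It had 1 UMI in each 48 h mouse and passed the filter on low counts through the day 10 mice alone. This call therefore carries little weight. Des fell, from 540.5 and 554 to 207, 221 and 318 CPM (-1.08, SE 0.20, edgeR adjusted p = 0.012).

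Acta2 in the cells with fewer than 2 Myh11 UMIs was at 393 and 529 CPM and then at 1249, 884 and 595 CPM and came close to the threshold (log2 fold change 1.04, SE 0.29, edgeR adjusted p = 0.0595). It passed with a Myh11 limit of 1 (adjusted p = 0.0248) or 3 UMIs (0.0392), with DESeq2 (0.0202) and without mouse 5 (0.0222). Tagln passed without any 1 of the mice, Des missed without mouse 1 (0.0586) or mouse 2 (0.0596), and Actg2 missed without mouse 1 (0.231), mouse 2 (0.113) or mouse 4 (0.0678) and with DESeq2 (0.0514).

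That the 2 sides of the Myh11 limit differed in their change was tested directly, as the interaction of class and time with the mouse as a block. The change of Tagln in the Myh11-high cells was lower than in the rest by 2.49 on the log2 scale (SE 0.24, edgeR adjusted p = 0.000536), and that of Acta2 by 2.08 (SE 0.30, edgeR adjusted p = 0.00631), where 0.994% of 8950 genes were called. For Tpm2 it was lower by 1.15 (SE 0.28, edgeR adjusted p = 0.0952), which did not pass, though it did without mouse 3 (0.0354) or mouse 5 (0.0183). Tagln passed without any 1 mouse, whereas Acta2 missed without mouse 1 or mouse 2 (adjusted p up to 0.136).

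Within the collagen-high cells low in Myh11 no contractile gene was called among the 6 tested other than Myh11, where 2.65% of 9909 genes were. Tagln was at 1493 and 999.9 CPM at 48 h and at 2825, 2067 and 1681 CPM at day 10, without overlap, as in 24.1% of all genes (log2 fold change 0.80, SE 0.23, edgeR adjusted p = 0.111). Acta2 was at 1076 and 912 CPM and then 1303, 925 and 674 CPM, with overlap (-0.06, SE 0.24, edgeR adjusted p = 0.945). Actg2 was at 5.79 and 4.61 and then 36.5, 21.8 and 14.7 CPM (2.25, SE 0.89, edgeR adjusted p = 0.246), and Des at 249 and 230.4 and then 168, 188 and 225 CPM (-0.33, SE 0.21, edgeR adjusted p = 0.493). Only 17 and 19 cells stood behind the 48 h values, against 187, 180 and 83 at day 10.

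Of the 14 matrix genes in these collagen-high cells Fn1, Tnc and Col5a2, named after their values were seen, rose, with log2 fold changes of 2.37, 2.36 and 1.02 (edgeR adjusted p = 0.000245, 0.000245 and 0.0129). The 3 collagens by which the cells were chosen stood at lower values at day 10, and no test is read from them. Beside this, the summed mesangial markers in these cells were 920 and 779 CPM at 48 h and 1999.7, 2384 and 2437 CPM at day 10, and the part of these in the differences was not tested.

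The difference in change between the Myh11-high collagen-low cells and the collagen-high cells low in Myh11, an interaction added after the data were seen, was called for none of 6 contractile genes other than Myh11, where 0.56% of 6425 genes were. For Tagln the change in the first was lower by 0.95 (SE 0.24, unadjusted p = 0.00132, edgeR adjusted p = 0.125). For Acta2 it was lower by 0.20 (SE 0.26, edgeR adjusted p = 0.863).

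In the cells low in both Myh11 and collagen, tested after the data were seen, none of 5 tested contractile genes was called, where 0.0712% of 4212 genes were (3 genes; 241 had an unadjusted p under 0.05, and DESeq2 called 3). Tagln had the largest difference, given above in CPM (log2 fold change 3.01, SE 0.57, edgeR adjusted p = 0.111), and Acta2 differed by 2.32 (SE 0.64, edgeR adjusted p = 0.401) with mouse 5 at the level of the 48 h mice. Both kept their direction with each mouse left out in turn (log2 fold change 2.36 to 5.56 for Tagln and 1.80 to 2.81 for Acta2). Whether they passed depended on the mice kept. Tagln passed in 3 and Acta2 in 2 of the fits with a mouse left out. Both did so without mouse 5 (edgeR adjusted p = 0.0118 for Tagln and 0.00249 for Acta2). Renin cell markers (Ren1 and Akr1b7) in these cells summed to 9422 CPM in mouse 3 and to between 113.1 and 386 CPM in the others. The Myh11-high collagen-low cells held renin markers too. Ren1 was there at 4202 and 207 CPM at 48 h and at 518, 1999 and 1732 CPM at day 10. Akr1b7 was at 368 and 230 and then 228, 301 and 196 CPM. The part of these markers in the contractile gene values of either class was not tested.

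The authors' own clusters, tested after the data were seen, need no limit on UMIs. The interstitial label was made of their clusters 7 and 9, of which cluster 7 made up 24.3% and 32.4% at 48 h and 68.8%, 72.7% and 53.3% at day 10. In cluster 7 Tagln was at 1253 and 1182 CPM and then at 3334, 2646 and 1907 CPM, and rose (log2 fold change 1.11, SE 0.22, edgeR adjusted p = 0.0387), the only contractile gene called where 2.24% of 10491 genes were. It missed the threshold without mouse 1, 2, 3 or 4 in turn (adjusted p from 0.0728 to 0.141). In cluster 9 Acta2 was at 5419.9 and 6597 CPM at 48 h and 7205, 6417 and 7269 CPM at day 10. None of the 7 tested contractile genes was called there, where 0.286% of 7350 genes were (21 genes; 796 had an unadjusted p under 0.05, and DESeq2 called 44), and Des differed by -0.61 (SE 0.15, edgeR adjusted p = 0.139).

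**Figure D4:**
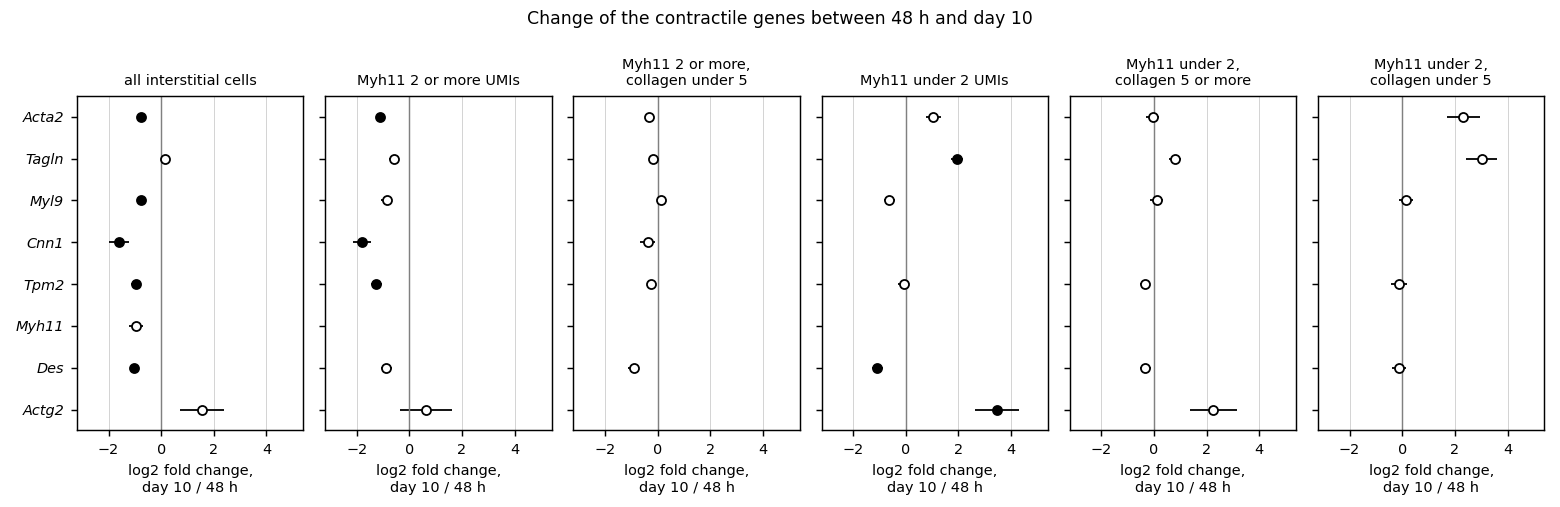
Log2 fold change of day 10 against 48 h (x axis) of the contractile genes in 6 sets of interstitial cells, with the standard error as a bar; filled points passed an adjusted p of 0.05 in edgeR. Myh11 is shown for the whole label only, since it chose the other sets, and genes below the filter on low counts have no point. Acta2 lies at -0.76 in the whole label, at -0.31 in the Myh11-high collagen-low cells and at -0.06 in the collagen-high cells low in Myh11.

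With all cells of a library summed, Acta2 and Tagln were higher in every day 10 mouse than at 48 h. Acta2 was at 55.2 and 63.4 CPM at 48 h and at 169, 139 and 85.9 CPM at day 10 (log2 fold change 1.02, SE 0.29, edgeR adjusted p = 0.141), and Tagln at 36.2 and 42 and then 225, 197 and 88.4 CPM (2.00, SE 0.42, edgeR adjusted p = 0.0767). All but Cnn1 had every day 10 mouse above both 48 h mice, which held for 33.3% of the 17507 tested genes. No contractile gene was called, where 1.83% of all genes were; with DESeq2 both Acta2 (adjusted p = 0.0211) and Tagln (3.71e-05) passed, and without mouse 5 Tagln did (0.0321). In such sums more cells of a type and more RNA per cell cannot be told apart, and interstitial cells were 2.35% and 1.91% of the kept cells at 48 h and 5.90%, 7.32% and 3.43% at day 10.

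Outside the interstitial label the contractile genes were scarce, and a few cells could make up their level. In the principal cells of mouse 4, Acta2 stood at 79.7 CPM, of which 93.4% came from 1 cell with 171 Acta2 UMIs. In the podocytes of mouse 4, 90.1% of the Tagln UMIs lay in 1 of 23 cells. In the endothelial cells of mouse 4, 62 of 64 Myh11 UMIs lay in 1 cell, and 44 of the 47 Myh11 UMIs in the immune cells of mouse 1 did so too. Between 3 and 10 barcodes were shared by any pair of libraries.

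In immune cells, by contrast, the UMIs of Tagln were spread over many cells, and Tagln and Myl9 rose. Tagln was at 9.76 and 11.4 CPM at 48 h and at 38.8, 54.4 and 28.5 CPM at day 10 (log2 fold change 1.99, SE 0.32, edgeR adjusted p = 0.0118), and Myl9 at 2.77 and 3.57 and then 13.4, 13.3 and 11.6 CPM (2.05, SE 0.22, edgeR adjusted p = 0.00491), where 19.2% of 14425 genes were called. No cell of mouse 3 held over 9 Tagln UMIs, and its top 3 cells held 2.59% of them. In mouse 4, which had the highest level, the top cell, of 28775 UMIs, held 35 Tagln, 67 Acta2 and 19 Myh11 UMIs. The top 3 cells of mouse 4 held 4.11% of its Tagln UMIs, and without them Tagln was at 52.3 CPM. At 2000 UMIs per cell, 2.27% of immune cells had a Tagln UMI at 48 h and 7.14% at day 10, and in S1 proximal tubule 0.260% and 2.15% (8.18% and 28.6%, and 1.46% and 6.02%, before thinning, with medians of 6178.5 and 10960.0 UMIs in immune cells and 6339 and 11729 in S1). The fibroblast markers in immune cells summed to 10.8 and 7.93 CPM at 48 h and 41.3, 59.6 and 37.1 CPM at day 10, so they moved with Tagln; their part in the rise was not tested. Tagln missed without mouse 1 (adjusted p = 0.0930) or mouse 2 (0.107), and Myl9 without mouse 2 (0.0523).

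A fit of the descending thin limb was chosen after the data were seen. It called Acta2 and Tagln as higher at day 10, where 5.12% of 11192 genes were called in either direction. Tagln was at 10.4 and 19.6 CPM at 48 h and at 262, 48.9 and 82 CPM at day 10 (log2 fold change 3.12, SE 0.75, edgeR adjusted p = 0.047), and Acta2 at 1.73 and 2.9 and then 78.2, 29 and 16.8 CPM (4.14, SE 0.92, edgeR adjusted p = 0.0354). Acta2 had only 3 and 4 UMIs in the 48 h mice and passed the filter on low counts through the day 10 mice alone. The top 3 cells of a day 10 mouse held 56.2% to 79.2% of its Tagln UMIs and 80.8% to 89.2% of its Acta2 UMIs. Without them Tagln was at 117, 10.4 and 21.8 CPM and Acta2 at 14.4, 3.25 and 3.31 CPM. At 48 h the top 3 cells of mouse 2 held 77.8% of its Tagln UMIs, and without them it was at 4.44 CPM; mouse 1 had 18 Tagln UMIs and was not trimmed, so the times are not compared after trimming. Both genes missed without mouse 1 (adjusted p = 0.206 for Acta2, 0.240 for Tagln) or mouse 2 (0.180 and 0.184), and Tagln also without mouse 5 (0.0534).

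In endothelial cells, proximal tubule, thick ascending limb, and distal tubule with principal cells no contractile gene was called, where 0.328%, 3.22%, 10.4% and 0.00774% of the genes were (40, 447, 1325 and 1 genes; 1698, 3149, 3699 and 1023 had an unadjusted p under 0.05). In endothelial cells Tagln was at 62.8 CPM in mouse 3, with 84.0% of its UMIs in 3 cells, against 5.39 to 17.2 CPM in the other mice. In proximal tubule Acta2 was at 1.91 and 2.4 CPM at 48 h and at 4.19, 5.02 and 4.47 CPM at day 10 (edgeR adjusted p = 0.141).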

How the data were processed

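Single-cell libraries of 5 kidneys were deposited by the authors as raw UMI counts per gene and barcode, written by Cell Ranger 6.0.0 per the file headers. The submitters' processing notes name Cell Ranger 6.0.2, Seurat 4.0.5 and mm10, with no role or filter given. The authors deposited a table of kept cells with cluster, label, the percent of mitochondrial UMIs and embedding scores; the scores were not used here. How doublets were treated is not given in the sources used here, and no caller was run. The 8 genes and all gene lists were chosen with earlier results of these data known. Named beside them were at most 3 rising and 3 falling genes of a list, relatives of a member, and the 8 genes of most similar profile.

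UMI counts were summed per mouse and set of cells and tested with edgeR 4.0.16 (filterByExpr, TMM, quasi-likelihood, Benjamini-Hochberg), under R 4.3.3, and tested on simulated data first. For the interstitial label the test recovered 19% of 2-fold and 80% of 4-fold changes, with 8 false calls. The direction was right for 190 of the 200 changed genes. These were drawn from genes above a set mean count, so recovery of scarcer genes was not measured. Alternatives were DESeq2 1.42.0, RLE size factors, no filter on low counts, Myh11 limits of 1 and 3 UMIs, cells thinned to 2000 UMIs and leaving out each mouse. Shares were compared by exact permutation over mice, enumerating every split. The fits for the collagen-low classes, the clusters, the descending thin limb and the second interaction were chosen after seeing the data. Intervals and limits from counts of 0 cover counting error only.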

Additional observations from a re-analysis of the deposited data

Results flagged for a closer look

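Acta2 and Tagln drew attention because their changes between 48 h and day 10 differed between interstitial cells on either side of the Myh11 limit, by a test of the difference itself. For Acta2 the log2 change in cells with 2 or more Myh11 UMIs minus that in the cells with fewer was -2.08 (SE 0.30, edgeR adjusted p = 0.00631), with changes of -1.11 and 1.04. For Tagln it was -2.49 (SE 0.24, edgeR adjusted p = 0.000536), with changes of -0.59 and 1.96. Between the Myh11-high collagen-low cells and the collagen-high cells low in Myh11, a comparison chosen after seeing the data, the same difference was -0.20 for Acta2 (edgeR adjusted p = 0.863) and -0.95 for Tagln (edgeR adjusted p = 0.125), and neither passed. Beside these values, collagen-high cells made up 17 of 87 and 19 of 53 of the Myh11-low cells in mice 1 and 2 and 187 of 248, 180 of 228 and 83 of 125 in mice 3 to 5.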

How the results depend on the processing

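No paired analysis was possible because the mouse numbers 1 to 5 are not shared between the 48 h and day 10 groups. Of the 18 fold changes of contractile genes that passed, none turned direction in 161 alternative fits and 45 of these fits lost the call. Of those that did not pass, only a chosen part, 23, was counted in this way. Among their 194 alternative fits 29 gave a call and 4 turned direction. Without the filter on low counts the number of genes called was 1705 rather than 847 in the interstitial label, 608 rather than 123 in its Myh11-high cells, 1705 rather than 878 in its Myh11-low cells, 780 rather than 263 in the collagen-high cells low in Myh11, 72 rather than 8 in the Myh11-high collagen-low cells, 91 rather than 3 in the cells low in both, 1003 rather than 235 in cluster 7, 258 rather than 21 in cluster 9, 687 rather than 321 in all cells, 451 rather than 40 in endothelium, 1143 rather than 447 in proximal tubule, 2429 rather than 1325 in thick ascending limb, 92 rather than 1 in distal tubule with principal cells, 1306 rather than 573 in the descending thin limb, and 328 rather than 89 in the interaction across the Myh11 limit; in that over collagen-split cells Tagln then passed (-1.10, adjusted p = 0.000800). With DESeq2 it was 208 in Myh11-high cells, 1903 in all cells, 205 in endothelium, 1181 in proximal tubule, 106 in distal tubule with principal cells, 449 in cluster 7 and 44 in cluster 9. Thinning gave 195 genes in the interstitial label, and a Myh11 limit of 3 UMIs 54 in the Myh11-high cells.

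With each mouse left out in turn the genes called numbered 211 to 702 in the interstitial label, 0 to 155 in Myh11-high cells, 322 to 646 in Myh11-low cells, 100 to 195 in collagen-high cells low in Myh11, 3 to 17 in Myh11-high collagen-low cells, 0 to 43 in cells low in both, 143 to 198 in cluster 7, 6 to 44 in cluster 9, 0 to 436 in all cells, 0 to 60 in endothelium, 128 to 3719 in immune cells, 27 to 594 in proximal tubule, 86 to 1379 in thick ascending limb, 0 to 12 in distal tubule with principal cells, 163 to 592 in the descending thin limb, and 8 to 130 and 15 to 56 in the interactions over all and over collagen-split cells. A group left with 1 mouse was taken to vary like the other. Among the fold changes counted above, directions turned for Acta2 in the collagen-high cells low in Myh11 (-0.06, then 0.056 without the filter and -0.34 to 0.14 with a mouse left out). They also turned for Acta2 in the interaction over collagen-split cells (-0.20, then -0.41 to 0.10). The share of Myh11-high cells turned as well (a day 10 excess of 2.24 points, then -1.76 after thinning and -0.24 to 5.65 with a mouse left out). The cause was not tested. With 2 mice at 48 h, and 17 and 19 collagen-high cells low in Myh11 behind their values, changes of under 4-fold could often not be detected.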
